A study of Mus musculus with 14 samples.

Results

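Satellite cells are the stem cells of skeletal muscle, and in resting muscle they stay outside the cell cycle in a state called quiescence. The 10 genes described here, Calcr, Cd34, Gas1, G0s2, Chrdl2, Fst, Foxo1, Foxo3, Dag1 and Cyp1b1, are ones named in connection with that state or with its release. They were chosen by name, with earlier results of these data known. Each matched 1 row of both count tables, so that 10 of 49671 genes are followed. RNA was sequenced from freshly sorted satellite cells of C57BL/6J mice (muscle at rest, from hind-limbs, triceps and pectoral), in 14 libraries of 1000 cells each. The first dataset holds 4 libraries labelled FosGFP+ and 4 labelled FosGFP-, sorted from 4-month-old mice that carry a GFP reporter of the transcription factor gene Fos. The second holds 3 libraries labelled FoscKO, a conditional knockout of Fos, and 3 Control libraries, all from mice aged 6 months. Cells were gated as B1-Integrin+ and CXCR4+, and without CD45, CD31 and CD11b (blood and vessel cells), Ter119 or Sca1. For FoscKO and Control alike, the series text names cells that were also FosGFP+. It gives 4 mice and 3 mice for the datasets, and the labels do not say which library came from which mouse, so that p-values measure only the spread between these libraries. The Cre driver of the knockout is not given in the sources used here.

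Quiescence in these cells is held by signals at the cell surface and by brakes inside the cell. The calcitonin receptor, encoded by Calcr, is a receptor of quiescent satellite cells that signals through cAMP and is lost after activation. FoxO transcription factors act under insulin and growth factor signalling and have been tied to a deep quiescent state in muscle, and growth arrest genes such as Gas1 were first found in fibroblasts that stopped dividing. AP-1, the dimer of Fos and Jun proteins, is induced rapidly when cells are stimulated.

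Fos mRNA went against the labels. It stood at 5243, 5398, 3098 and 4606 CPM (counts per 1000000 of the library size, scaled by TMM, a trimmed mean of log ratios between libraries) in the 4 libraries labelled FosGFP+, against 12883, 11592, 7908 and 11302 CPM in FosGFP-. All FosGFP+ libraries were thus below all FosGFP- libraries, with a log2 fold change of -1.25 ± 0.21 (SE) and an edgeR adjusted p of 9.33e-04. The FoscKO libraries held 8442, 2876 and 3805 CPM, against 5044, 5025 and 4733 CPM in Control, a log2 fold change of 0.03 ± 0.39 (SE; edgeR adjusted p = 0.996). Counts cover the whole gene, and the deleted part of Fos is not given in the sources used here, so this value does not test the deletion. The authors' deposited tables, as given, have the opposite sign to the fits here for 3398 of 3398 and 69 of 69 shared genes. Tables written with the groups in the other order and an exchange of labels or count columns cannot be told apart from these signs. Every direction below is therefore one between the count columns as labelled, and would turn if they were exchanged.

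Depth, as counts in genes, was 3806776 to 5983711 in the FosGFP+ libraries, 2652230 to 4067543 in FosGFP-, 4797954 to 10241655 in FoscKO, and 5326686 to 6930696 in Control. An even background of reads, estimated from 1745 olfactory, vomeronasal and taste receptor genes, took 8.92% ± 1.80 of the FosGFP+ counts, against 15.8% ± 2.82 of those in FosGFP- (SD, n = 4 each). It took 7.58% ± 4.01 in FoscKO and 9.81% ± 0.766 in Control (SD, n = 3 each). FoscKO replicate 1 stood apart, with the highest total and a count in 31483 genes, fewer than any other library. The satellite cell markers were present in every group: the summed level of 9 of them, Calcr included, was 9360 to 12884 CPM in FosGFP+, 5370 to 7843 CPM in FosGFP-, 7376 to 13090 CPM in FoscKO and 6581 to 9438 CPM in Control. Sdc4 led this sum, at a mean of 5416 CPM in FosGFP+ and 2069 CPM in FosGFP-. Of the 9 fitted changes in FosGFP+ minus FosGFP-, 5 were above 0 and 4 below. Pax7 had a mean of 52.9 CPM in FosGFP+ and 71.9 CPM in FosGFP-.

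Gas1 and G0s2 were the members with the largest fitted differences, in opposite directions in the 2 comparisons, and their promoter windows are shown for that reason. Each window runs from 250 bases before to 50 bases after the RefSeq start on the gene's strand (GRCm38.p6), and capitals mark the motif matches found on either strand. Gas1 lies at chr13:60177486-60177785, minus strand, where the capitals are a CCAAT box that begins 68 bases before the start. G0s2 lies at chr1:193273139-193273438, minus strand, where the capitals are E-boxes (CANNTG) that begin 243 and 224 bases before the start.
Gas1: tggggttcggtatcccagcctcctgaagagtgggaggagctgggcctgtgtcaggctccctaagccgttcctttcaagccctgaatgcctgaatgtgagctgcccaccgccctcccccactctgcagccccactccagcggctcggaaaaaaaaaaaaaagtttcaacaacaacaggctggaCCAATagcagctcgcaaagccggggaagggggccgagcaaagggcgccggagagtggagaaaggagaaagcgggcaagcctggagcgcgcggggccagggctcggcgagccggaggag
G0s2: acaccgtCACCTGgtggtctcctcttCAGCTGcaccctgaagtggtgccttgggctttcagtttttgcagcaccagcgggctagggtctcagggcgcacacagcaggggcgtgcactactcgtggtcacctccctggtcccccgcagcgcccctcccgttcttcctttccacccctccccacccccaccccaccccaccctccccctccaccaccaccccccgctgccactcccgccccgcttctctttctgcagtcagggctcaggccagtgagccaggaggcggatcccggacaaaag
Among 32851 mouse windows of the same length, 37.4% hold CCAAT and 72.3% hold an E-box, so neither match is rare. The AP-1 site searched, TGANTCA, is in 7.81% of windows and in 0 of the 10 windows found for 8 of the 10 genes (all but Chrdl2 and Fst). The FOXO motif TGTTTAC is in 3.65% of windows and the cAMP response element TGACGTCA in 1.79%, and the windows of the 8 genes hold neither. A missing match says only that these letters are not in these windows.

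Per kilobase of exon, the 10 genes ranged from abundant mRNAs to levels below background. In Control, Dag1 was highest at 244 ± 51.9 CPM per kb, followed by Gas1 at 125 ± 20.6 and Chrdl2 at 108 ± 21.2 CPM per kb (SD, n = 3). Dag1 stood apart from Gas1 in Control, whereas the libraries of Gas1 and Chrdl2 overlapped. Calcr, G0s2 and Cd34 followed at 42.4 ± 6.91, 38.7 ± 5.36 and 33.1 ± 5.88 CPM per kb in Control, with overlapping neighbours. Foxo1 stood below them at 13.5 ± 1.22 CPM per kb, and Foxo3 and Fst at 2.89 ± 0.294 and 2.45 ± 1.64 CPM per kb overlapped (Control, SD, n = 3). Cyp1b1 was last at 0.0587 ± 0.0510 CPM per kb in Control. The order of the top 3 differed between groups: Chrdl2 at 276 ± 29.8 and Dag1 at 253 ± 33.99 CPM per kb led in FosGFP+ with overlapping libraries, while Gas1 at 317 ± 108 and Dag1 at 280 ± 108 CPM per kb led in FosGFP-, also with overlap (SD, n = 4 each). In FoscKO, Dag1 at 380 ± 106 and Gas1 at 333 ± 192 CPM per kb led with overlap (SD, n = 3).

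The even background sets how far the low members can be read. It amounted to 0.830, 1.13, 0.626 and 0.742 CPM per kb on average in FosGFP+, FosGFP-, FoscKO and Control. Scaled to exon length, it equalled 42.7% of the Fst level in FosGFP+, 54.6% in FosGFP-, 22.3% in FoscKO and 30.3% in Control. For Foxo3 the same shares were 22.4%, 33.2%, 26.5% and 25.7%. The Cyp1b1 level was below the background in all 4 groups, so its values cannot be read as expression. In Control the background estimate was 1264% of the Cyp1b1 level. The background is thus not even over genes, and the shares given for single genes are approximate. For the other 7 genes the background was at most 6.70% of the mean level of a group. Single libraries could lie nearer to it: G0s2 in FosGFP+ replicate 4 had 22 counts, or 4.79 CPM, beside a background of 0.742 CPM.

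**Figure D1:**
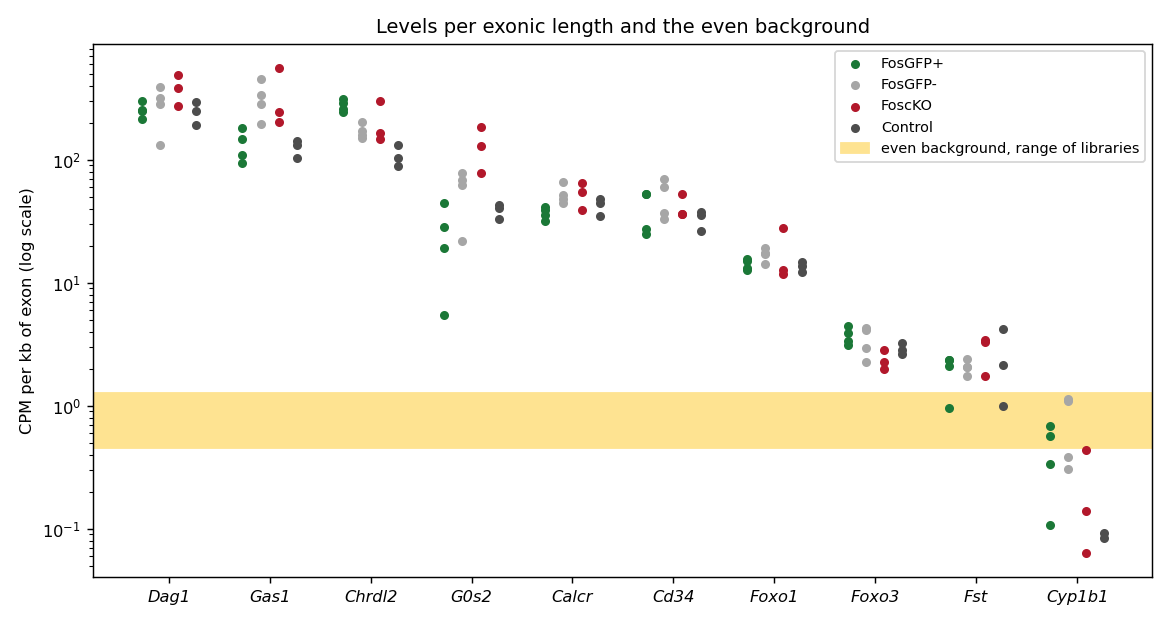
Levels of the 10 genes in each library, in CPM per kilobase of exon on a log axis; points are libraries, coloured by group, and the band is the range of the even background over the 14 libraries. Dag1, Gas1 and Chrdl2 lie highest, Foxo3 lies just above the band, Fst has 2 libraries in it, and Cyp1b1 lies in or below it (the Control library with 0 counts cannot be drawn on this axis).

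The first comparison sets reporter-positive cells against reporter-negative ones. In the libraries labelled FosGFP+, the growth arrest gene Gas1 fell to 395 ± 117 CPM, against 940 ± 319 CPM in FosGFP- (SD, n = 4 each). Chrdl2, which encodes a secreted BMP antagonist, rose to 1012 ± 109 CPM in FosGFP+, against 624 ± 81.8 CPM in FosGFP- (SD, n = 4 each). The other 8 members did not pass the test. With 1 of 10 members higher and 1 lower, the counts stand against 10.3% and 1.85% of all 20698 genes tested that edgeR called higher and lower. The members' median log2 fold change was -0.30, beside -0.18 over all genes tested, and 8 of the 10 fitted values were below 0.

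**Figure D2:**
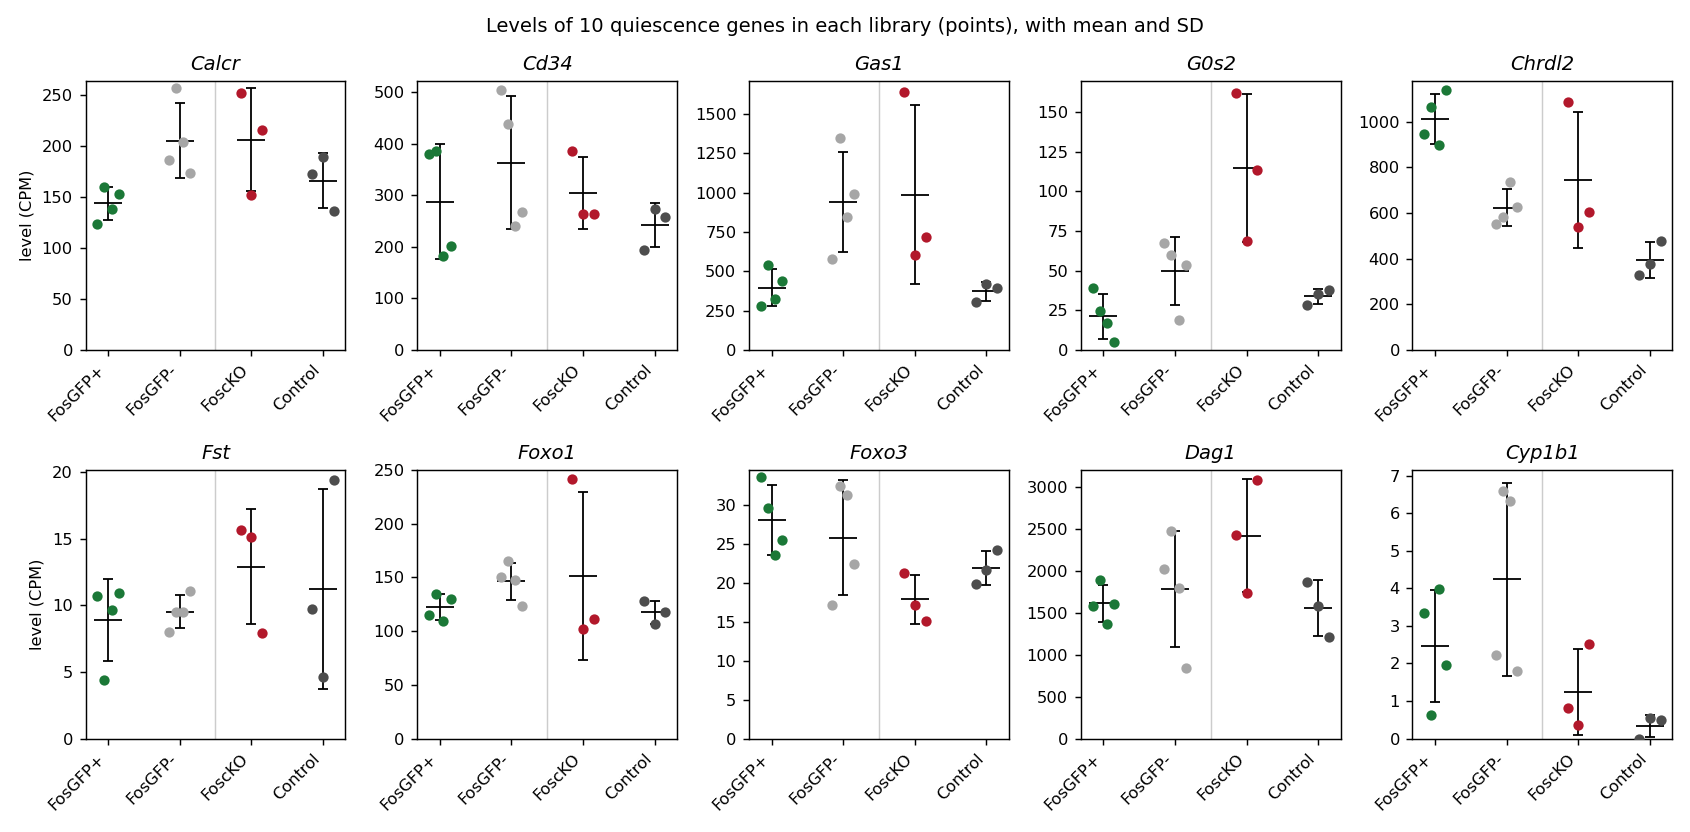
Levels of the 10 genes in CPM on TMM library sizes; each point is a library, and bars show the mean and SD of the group (n = 4, 4, 3 and 3 for FosGFP+, FosGFP-, FoscKO and Control). FosGFP+ and FosGFP- do not overlap for Gas1, Chrdl2 and Calcr, and FoscKO and Control do not overlap for Gas1, G0s2 and Chrdl2.

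Among the surface proteins, Calcr (ENSMUSG00000023964, chromosome 6, 3685680 to 3764714, minus strand) stood at 124, 160, 138 and 153 CPM in FosGFP+, against 186, 257, 204 and 174 CPM in FosGFP-. Every FosGFP+ library was below every FosGFP- library, as for 6.45% of all genes tested. The log2 fold change of -0.51 ± 0.18 (SE) missed the threshold, with an edgeR adjusted p of 0.0791. It passed in 6 of 19 alternative settings, among them total counts (-0.91, edgeR adjusted p = 0.00165) and subtraction of the even background (-0.76, edgeR adjusted p = 0.0118). Adjusted p over the 19 settings ran to 0.305, with no filter. With a library left out it passed in 1 of 8 fits, without FosGFP- replicate 4 (-0.58, edgeR adjusted p = 0.0484), and was smallest without FosGFP- replicate 2 (-0.36, edgeR adjusted p = 0.266).

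Cd34 (ENSMUSG00000016494, chromosome 1, 194938819 to 194961279, plus strand) encodes a sialomucin found on quiescent satellite cells and also on endothelium and fibro-adipogenic progenitors. It stood at 380, 387, 181 and 201 CPM in FosGFP+, against 505, 439, 241 and 267 CPM in FosGFP-. The groups overlapped, and replicates 1 and 2 were above replicates 3 and 4 in each of them. Its log2 fold change was -0.34 ± 0.28 (SE; edgeR adjusted p = 0.463), and -0.35 with same-numbered libraries as blocks (edgeR adjusted p = 0.211).

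Dag1 (ENSMUSG00000039952, chromosome 9, 108204634 to 108263958, minus strand) encodes dystroglycan, the laminin receptor that anchors the cell to its basal lamina. It stood at 1583, 1892, 1366 and 1601 CPM in FosGFP+, against 2015, 2469, 1798 and 839 CPM in FosGFP-. The FosGFP- libraries spread on both sides of the FosGFP+ ones, and FosGFP- replicate 4 was lowest of all. Its fitted log2 fold change was -0.14 ± 0.25 (SE; edgeR adjusted p = 0.738).

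Gas1 (ENSMUSG00000052957, chromosome 13, 60174405 to 60177365, minus strand, a single exon) encodes a membrane-anchored protein that blocks entry into S phase in fibroblasts and acts as a co-receptor for hedgehog ligands. It stood at 280, 538, 323 and 439 CPM in FosGFP+, against 579, 1345, 845 and 990 CPM in FosGFP-. The highest FosGFP+ library lay below the lowest FosGFP- library. Gas1 had a log2 fold change of -1.25 ± 0.25 (SE; edgeR adjusted p = 0.00398). It was called in 19 of 19 alternative settings, at -1.86 to -1.001, and the authors' deposited table gives -1.05 for FosGFP+ over FosGFP- with the sign turned (adjusted p = 0.00118). That table lists 6.89% of all genes counted, and Gas1 and Chrdl2 of the members. Of its exonic length, 19.9% lies under Gm48488, a noncoding gene of the opposite strand that has no row in the count tables, and the library kit does not keep the strand.

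Fewer cells of a type and less RNA per cell cannot be told apart in such pooled libraries, and markers of other cells also moved with these labels. The summed level of 12 endothelial markers was 123 to 145 CPM in FosGFP+, against 188 to 242 CPM in FosGFP-, with 1 of 11 tested called lower and 10 of 11 below 0. That of 12 fibro-adipogenic markers overlapped, at 3940 to 5161 CPM in FosGFP+ and 2443 to 5211 CPM in FosGFP-, with 1 of 11 tested called lower, 8 of 11 below 0 and a median log2 fold change of -0.82 (-0.62 for the endothelial list and -0.18 over all genes). Their defining genes Pdgfra, at 8.35 to 20.7 CPM in FosGFP+ and 19.8 to 37.7 CPM in FosGFP-, and Dcn, at 34.5 to 380 CPM in FosGFP+ and 157 to 547 CPM in FosGFP-, overlapped between the groups. Ly6a, the gene of the Sca1 protein that the gate excludes, was at most 2.28 CPM in FosGFP+ and at most 1.44 CPM in FosGFP-. The part of these cells in the differences of Gas1, Calcr and Cd34 was not tested.

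Of the secreted antagonists, Chrdl2 (ENSMUSG00000030732, chromosome 7, 100006172 to 100034728, plus strand) stood at 947, 1064, 899 and 1138 CPM in FosGFP+, against 550, 581, 737 and 626 CPM in FosGFP-. Every FosGFP+ library was above every FosGFP- library, as for 12.9% of all genes tested. The log2 fold change was 0.70 ± 0.17 (SE; edgeR adjusted p = 0.0110), and the authors' deposited table gives 0.78 with the sign turned (adjusted p = 2.55e-04). The call was lost with total counts (0.29, edgeR adjusted p = 0.145), with TMM on genes of at least 50 CPM (0.10, 0.546), without the 20 most abundant genes (0.23, 0.207) and with the background subtracted (0.45, 0.0753). Under total counts, and under TMM restricted to genes of at least 50 CPM, the median over all genes shifted by -0.40 and -0.59. Relative to that median, Chrdl2 stood at 0.88, 0.87 and 0.87 on the log2 scale with TMM, total counts and the restricted TMM. Gas1 stood at -1.07, -1.09 and -1.09, and Calcr at -0.33 in each. A change of library sizes moves all genes by nearly the same amount, so these steady values follow from the scaling and are no test. With the even background subtracted, the values relative to the median were 0.63 for Chrdl2, -1.34 for Gas1 and -0.58 for Calcr.

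The activin and myostatin antagonist follistatin, encoded by Fst (ENSMUSG00000021765, chromosome 13, 114452290 to 114458951, minus strand), stood at 10.7, 4.39, 9.67 and 10.9 CPM in FosGFP+, against 8.02, 9.48, 9.49 and 11.1 CPM in FosGFP-. These levels overlapped, with a log2 fold change of -0.09 ± 0.37 (SE; edgeR adjusted p = 0.894).

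G0s2 (ENSMUSG00000009633, chromosome 1, 193272161 to 193273217, minus strand), named for the switch out of G0 in blood lymphocytes, encodes an inhibitor of the lipase ATGL. It stood at 38.8, 24.6, 16.8 and 4.79 CPM in FosGFP+, against 67.3, 59.7, 19.0 and 53.8 CPM in FosGFP-. FosGFP- replicate 3 lay within the FosGFP+ range, and the other 3 FosGFP- libraries lay above it. The log2 fold change of -1.23 ± 0.46 (SE) was close in size to that of Gas1 and missed the threshold, with an edgeR adjusted p of 0.0997. It passed in 5 of 19 alternative settings, with adjusted p over all 19 of 0.0209 to 0.430. Of the 8 fits with a library left out, it passed without FosGFP+ replicate 1 (-1.66, edgeR adjusted p = 0.0323) and without FosGFP- replicate 3 (-1.49, edgeR adjusted p = 0.0455), and was smallest without FosGFP+ replicate 4 (-0.87, edgeR adjusted p = 0.191).

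The FoxO transcription factor genes did not pass the test. Foxo1 (ENSMUSG00000044167, chromosome 3, 52268336 to 52353221, plus strand) stood at 115, 135, 110 and 130 CPM in FosGFP+, against 150, 165, 147 and 123 CPM in FosGFP-. The groups overlapped through FosGFP- replicate 4, and the log2 fold change was -0.26 ± 0.17 (SE; edgeR adjusted p = 0.353). Foxo3 (ENSMUSG00000048756, chromosome 10, 42181841 to 42276755, minus strand) stood at 33.6, 29.7, 23.6 and 25.5 CPM in FosGFP+, against 17.2, 32.4, 31.3 and 22.4 CPM in FosGFP-. Its log2 fold change of 0.12 ± 0.26 (SE; edgeR adjusted p = 0.786) turned to -0.27 with total counts, and the groups overlapped.

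Cyp1b1 (ENSMUSG00000024087, chromosome 17, 79701537 to 79715061, minus strand), a cytochrome P450 gene induced through the aryl hydrocarbon receptor, had 3 to 14 counts per library in FosGFP+ and 6 to 23 in FosGFP-. Its fitted log2 fold change was -0.78 ± 0.63 (SE; edgeR adjusted p = 0.442), at levels below the even background.

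**Figure D3:**
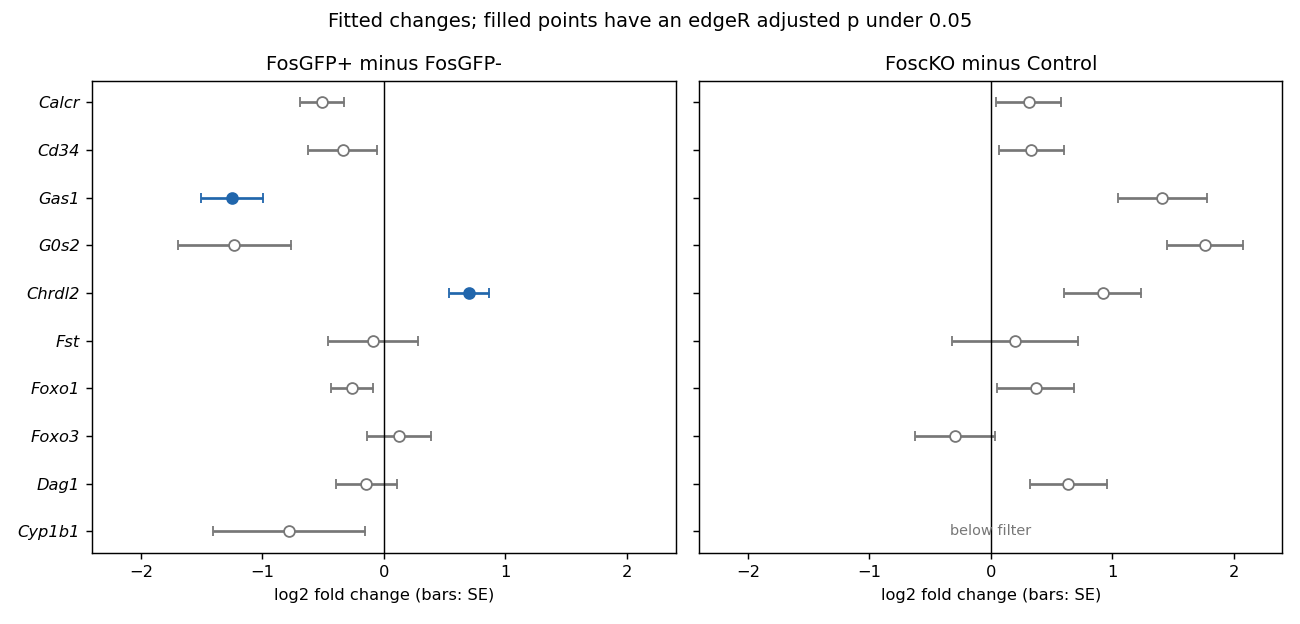
Fitted log2 fold changes with SE for each gene, FosGFP+ minus FosGFP- on the left and FoscKO minus Control on the right; filled points have an edgeR adjusted p under 0.05. Gas1 at -1.25 and Chrdl2 at 0.70 are filled on the left, no point is filled on the right, and Cyp1b1 did not pass the filter there.

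The second comparison asks what changes in satellite cells labelled as lacking Fos. No member passed the main test, which called 0 of 21885 genes (0%) in either direction, while 1208 genes had an unadjusted p under 0.05, DESeq2 called 93 (59 of them higher, or 0.27%, with G0s2 and Gas1 of the members among them) and limma-voom 6. G0s2 had the largest fitted difference, at 114 ± 46.6 CPM in FoscKO and 33.7 ± 4.67 CPM in Control (SD, n = 3 each). Gas1 stood at 987 ± 569 CPM in FoscKO and 371 ± 60.9 CPM in Control, and Chrdl2 at 744 ± 299 CPM in FoscKO and 394 ± 77.7 CPM in Control (SD, n = 3 each). For these 3 genes every FoscKO library was above every Control library, as for 5.75% of all genes tested. The members' median log2 fold change was 0.37, beside -0.04 over all genes, and 8 of 9 fitted members were above 0. Of these, 3 had an unadjusted p under 0.05. The upward shift was not particular to the members. In the same fit the median was 0.31 for a wider quiescence list (28 of 35 above 0) and 0.31 for the satellite cell markers (7 of 9). It was nearer 0 for GAS1 partners (0.04) and aryl hydrocarbon receptor genes (0.02). With total counts the members' median was 0.09, beside -0.21 over all genes.

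G0s2 stood at 162, 68.4 and 113 CPM in FoscKO, against 28.5, 35.1 and 37.5 CPM in Control. The groups did not overlap, and the Control libraries were close together. G0s2 had a log2 fold change of 1.76 ± 0.31 (SE; edgeR adjusted p = 0.0918). It was positive in 17 of 17 alternative settings, at 1.43 to 2.04, and called in 9 of them, among them DESeq2 (adjusted p = 2.41e-04). With a library left out it passed in 1 of 6 fits, without FoscKO replicate 1 (1.43, edgeR adjusted p = 0.0361). The edgeR adjusted p of these 6 fits ran to 0.840, without Control replicate 1. The authors' deposited table gives 1.55 for FoscKO over Control with the sign turned (adjusted p = 0.00147). That table lists 0.139% of all genes counted, and G0s2 and Gas1 of the members.

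Gas1 stood at 1641, 604 and 717 CPM in FoscKO, against 303, 420 and 392 CPM in Control. FoscKO replicate 1, the library that also had the highest Fos level, held more than the sum of the other FoscKO libraries. The log2 fold change was 1.41 ± 0.37 (SE; edgeR adjusted p = 0.400), and 0.83 without that library (edgeR adjusted p = 0.221). It passed in 3 of 17 alternative settings, DESeq2 among them (adjusted p = 0.0161), and the authors' deposited table gives 1.24 with the sign turned (adjusted p = 0.0465).

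Chrdl2 stood at 1088, 540 and 605 CPM in FoscKO, against 327, 376 and 479 CPM in Control. The groups did not overlap, and FoscKO replicate 1 was again the highest library. Chrdl2 had a log2 fold change of 0.92 ± 0.32 (SE; edgeR adjusted p = 0.760), and 0.54 without that replicate (edgeR adjusted p = 0.848). It passed in 0 of 17 alternative settings. The fibre markers moved with these labels: 12 of 12 fitted values were below 0 (median -1.23), with a summed level of 573 to 1833 CPM in FoscKO and 1620 to 3453 CPM in Control. Of the endothelial markers, 10 of 11 were below 0 (median -0.34), with overlapping sums of 126 to 155 CPM in FoscKO and 137 to 184 CPM in Control. Pecam1, the CD31 gene, was at 3.92 to 10.4 CPM in FoscKO and 12.2 to 21.9 CPM in Control. Of the fibro-adipogenic markers, 7 of 11 were above 0 (median 0.30), and their sums overlapped at 5432 to 10102 CPM in FoscKO and 6182 to 7810 CPM in Control. Pdgfra went against most of that list, at 7.27 to 9.74 CPM in FoscKO and 12.5 to 21.7 CPM in Control. Dcn was at 67.0 to 162 CPM in FoscKO and 24.7 to 91.9 CPM in Control, with overlap. None of these 3 lists had a gene called by edgeR with TMM on all genes. Of the 12 fibre markers, 2 were called lower with total counts and 2 with the restricted TMM, beside 33 and 32 of all 21885 genes tested. With the background subtracted, 1 fibre marker was called lower. The part of these 3 lists in the differences of G0s2, Gas1 and Chrdl2 was not tested.

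**Figure D4:**
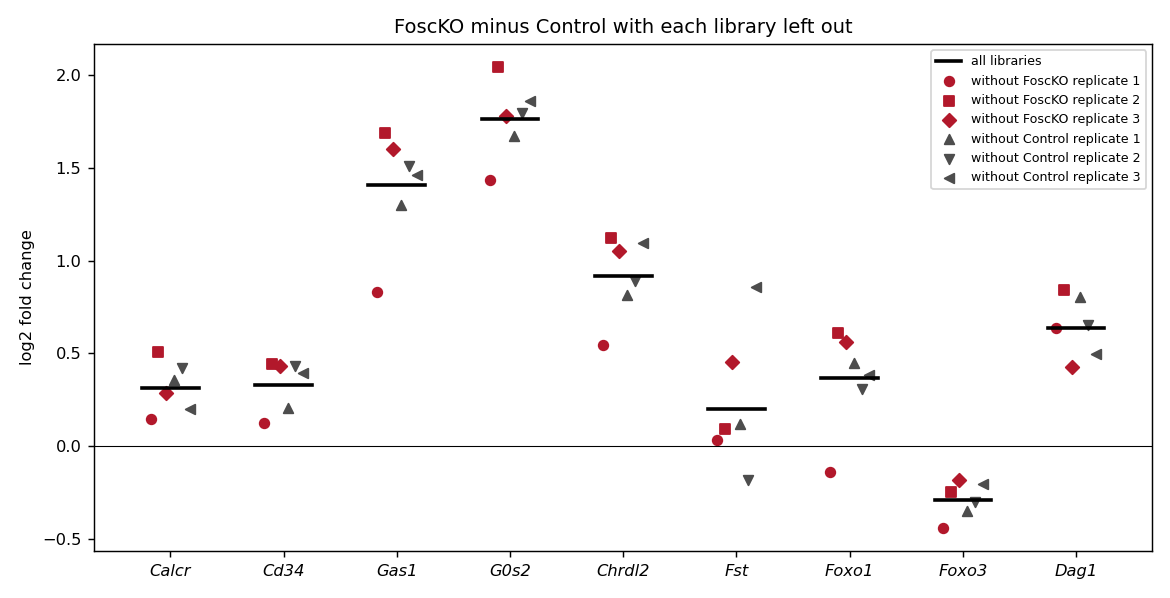
Log2 fold changes of FoscKO minus Control for the 9 fitted genes, with all libraries (bars) and with each library left out (symbols). Without FoscKO replicate 1, Gas1 is at 0.83, G0s2 at 1.43 and Chrdl2 at 0.54, and Foxo1 turns to -0.14.

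The genes of surface proteins did not pass the test. Calcr stood at 252, 152 and 215 CPM in FoscKO, against 173, 189 and 136 CPM in Control, a log2 fold change of 0.31 ± 0.27 (SE; edgeR adjusted p = 0.917). Cd34 stood at 386, 264 and 263 CPM in FoscKO, against 193, 273 and 259 CPM in Control, a log2 fold change of 0.33 ± 0.27 (SE; edgeR adjusted p = 0.914). Dag1 stood at 2425, 1736 and 3085 CPM in FoscKO, against 1868, 1583 and 1211 CPM in Control, a log2 fold change of 0.64 ± 0.32 (SE; edgeR adjusted p = 0.914). The groups overlapped for all 3 genes. Dag1 passed only in limma-voom with quality weights (0.88, adjusted p = 0.0407) of 17 alternative settings.

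For the remaining members the groups overlapped as well. Foxo1 stood at 242, 102 and 111 CPM in FoscKO, against 128, 107 and 117 CPM in Control, and its log2 fold change of 0.37 ± 0.32 (SE; edgeR adjusted p = 0.917) turned to -0.14 without FoscKO replicate 1. Foxo3 stood at 21.3, 17.1 and 15.1 CPM in FoscKO, against 19.9, 21.6 and 24.3 CPM in Control, and was the 1 fitted member below 0, at -0.29 ± 0.33 (SE; edgeR adjusted p = 0.922). Fst stood at 15.7, 15.1 and 7.94 CPM in FoscKO, against 9.74, 4.59 and 19.4 CPM in Control, with a log2 fold change of 0.20 ± 0.52 (SE; edgeR adjusted p = 0.968). Cyp1b1 did not pass the filter on low counts, with 2 to 21 counts per library in FoscKO and 0 to 4 in Control. Its exact permutation p was 0.3, two-sided, where 3 libraries against 3 cannot go below 0.1.

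The change of scaling moved the members together. In the first comparison, 6 members were called lower and 0 higher with the restricted TMM, beside 5252 genes (25.4%) lower and 722 higher of all tested, where TMM on all genes gave 383 lower and 2125 higher. With total counts, 4 members were called lower (Gas1, Calcr, Foxo1 and G0s2) and 0 higher, beside 2243 genes (10.8%) lower and 1005 higher. Of the members, Gas1 alone kept its call in all 19 settings tried beside the main one.

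**Figure D5:**
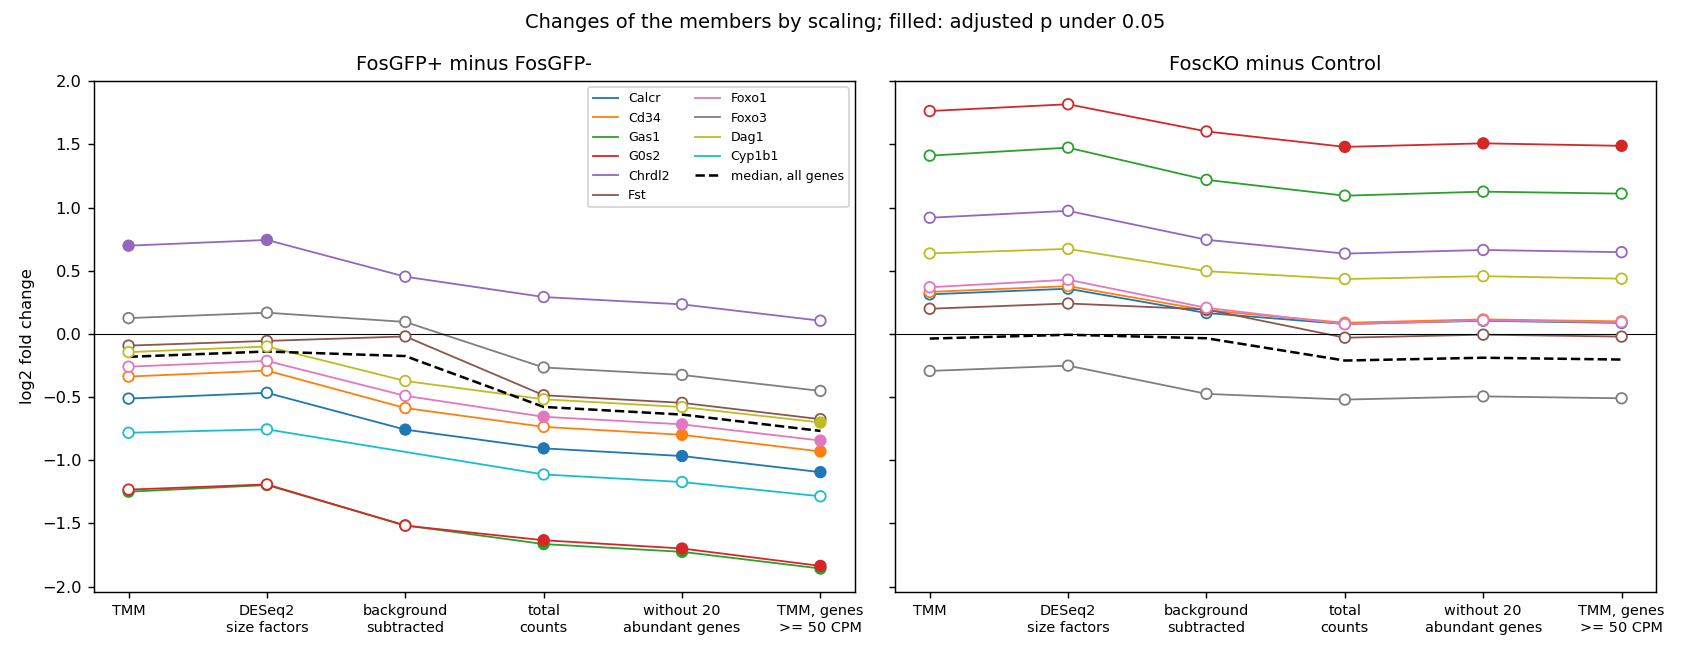
Log2 fold changes of the members under 6 scalings (x axis), FosGFP+ minus FosGFP- on the left and FoscKO minus Control on the right; filled points have an edgeR adjusted p under 0.05, and the dashed line is the median of all genes tested. Where only library sizes change, the members shift with the dashed line, so that Chrdl2 goes from 0.70 with TMM to 0.10 with TMM from genes of at least 50 CPM. With the background subtracted, the line on the left stays at -0.18. There Chrdl2 moves to 0.45, Gas1 to -1.52 and Calcr to -0.76, while Fst and Foxo3 move little, to -0.02 and 0.09. Cyp1b1 has no value with the background subtracted.

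Genes around the members were followed in 8 lists of 126 genes. These lists were chosen with earlier results of these data known, so their counts beside the shares over all genes are no test. In FosGFP+ against FosGFP-, 21 of 121 tested were called higher and 4 lower, beside 10.3% and 1.85% of all genes, with a median log2 fold change of 0.17, beside -0.18 over all genes. None of 120 passed in FoscKO against Control by edgeR. Without adjustment 18 had a p under 0.05, and DESeq2 called 3, limma-voom 1 and limma-voom with quality weights 5. With total counts the first comparison's counts were 12 higher and 17 lower, so the direction of the lists depends on the scaling.

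The wider quiescence list (36 genes of Notch signalling, adhesion and cell cycle brakes) had 4 genes higher and 1 lower in FosGFP+, shares near those over all genes. With total counts it had 3 higher and 9 lower, and with the restricted TMM 3 higher and 13 lower. Hes1, a Notch target, stood at 18.9 ± 7.60 CPM in FosGFP+ and 200 ± 64.3 CPM in FosGFP- (SD, n = 4 per group), with a log2 fold change of -3.39 ± 0.32 (SE; edgeR adjusted p = 3.29e-05). Vcam1, an adhesion molecule of satellite cells, rose by 1.204 ± 0.20 and Cav1, the coat protein of caveolae, by 1.01 ± 0.17 on the log2 scale (SE; edgeR adjusted p = 0.00109 and 0.00114). All 3 were called in 19 of 19 alternative settings.

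Calcitonin receptor signalling (12 genes, 11 tested) had 2 genes higher and 1 lower in FosGFP+, beside 10.3% and 1.85% of all genes tested. Yap1, a growth regulator held in check by the calcitonin receptor in satellite cells, stood at 119 ± 9.14 CPM in FosGFP+ and 59.3 ± 12.1 CPM in FosGFP- (SD, n = 4 per group), with a log2 fold change of 1.00 ± 0.19 (SE; edgeR adjusted p = 0.00257). Its call was lost with the restricted TMM (0.43, edgeR adjusted p = 0.0659). Lats1, a kinase that restrains YAP, rose by 0.85 ± 0.26 on the log2 scale (SE; edgeR adjusted p = 0.0395) and was called in 9 of 19 alternative settings. Ramp2, which pairs with calcitonin-family receptors and is also counted among the endothelial markers, stood at 16.9 ± 5.79 CPM in FosGFP+ and 42.2 ± 10.0 CPM in FosGFP- (SD, n = 4 each), with an edgeR adjusted p of 0.00753.

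Activin and BMP signalling (19 genes, 18 tested), the pathway of Fst and Chrdl2, had 2 genes higher and 1 lower in FosGFP+. These counts stand beside 10.3% and 1.85% of all genes tested. Smad1, which carries the BMP signal to the nucleus, stood at 290 ± 63.3 CPM in FosGFP+ and 95.9 ± 37.6 CPM in FosGFP- (SD, n = 4 per group), with a log2 fold change of 1.59 ± 0.26 (SE; edgeR adjusted p = 9.29e-04). The ligand gene Bmp4 stood at 230 ± 16.9 CPM in FosGFP+ and 146 ± 8.60 CPM in FosGFP- (SD, n = 4 each), with an edgeR adjusted p of 0.0134 that became 0.189 with total counts. Acvr2b, a receptor of activin and myostatin, stood at 7.28 ± 2.17 CPM in FosGFP+ and 16.6 ± 6.18 CPM in FosGFP- (SD, n = 4 each; edgeR adjusted p = 0.0416), and was called in 10 of 19 alternative settings.

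FoxO regulators and targets (21 genes) had 6 genes higher and 1 lower in FosGFP+, beside 10.3% and 1.85% of all genes tested. With total counts the list had 3 higher and 4 lower, and with the restricted TMM 2 higher and 6 lower. Foxo1 and Foxo3 themselves did not pass the main test. Txnip, a FoxO target that binds thioredoxin and limits glucose uptake, stood at 243 ± 54.1 CPM in FosGFP+ and 680 ± 133 CPM in FosGFP- (SD, n = 4 per group), with a log2 fold change of -1.49 ± 0.20 (SE; edgeR adjusted p = 2.91e-04). Akt2, a kinase that inactivates FoxO proteins, rose by 1.29 ± 0.19 and the mitochondrial superoxide dismutase gene Sod2 by 1.53 ± 0.28 on the log2 scale (SE; edgeR adjusted p = 4.92e-04 and 0.00194). All 3 were called in 19 of 19 alternative settings.

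The dystroglycan complex and its glycosylation (19 genes, 18 tested) had 1 gene higher in FosGFP+, beside 10.3% of all genes tested. It was the syntrophin gene Sntb2, at 156 ± 47.6 CPM in FosGFP+ and 80.3 ± 18.6 CPM in FosGFP- (SD, n = 4 each; edgeR adjusted p = 0.0126, and 0.0700 with total counts). Of the 9 genes of GAS1 partners in hedgehog and RET signalling, 0 passed by edgeR with TMM on all genes, by DESeq2 or by limma-voom in either comparison, with an unadjusted edgeR p under 0.05 for 1 in the first and 2 in the second. With the restricted TMM, 3 of the 9 (Cdon, Smo and Gli2, named after their values were seen) were called lower in FosGFP+.

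Partners of G0S2 in lipolysis (6 genes) had 3 genes higher in FosGFP+, beside 10.3% of all genes tested. With total counts the list had 1 higher and 1 lower. Plin2, which coats lipid droplets, stood at 117 ± 30.0 CPM in FosGFP+ and 46.0 ± 13.7 CPM in FosGFP- (SD, n = 4 per group), with a log2 fold change of 1.35 ± 0.24 (SE; edgeR adjusted p = 0.00157). Pnpla2, the gene of the lipase that G0S2 inhibits, and Abhd5, its coactivator, rose by 0.84 ± 0.20 and 0.77 ± 0.23 on the log2 scale (SE; edgeR adjusted p = 0.0122 and 0.0367). Both lost the call with total counts (edgeR adjusted p = 0.0852 and 0.225).

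Aryl hydrocarbon receptor genes (7 genes, 5 tested) had 3 genes higher in FosGFP+, beside 10.3% of all genes tested. Cyp1b1, the target among the members, was below background. Ahr, the receptor gene, stood at 352 ± 44.7 CPM in FosGFP+ and 104 ± 45.01 CPM in FosGFP- (SD, n = 4 per group), with a log2 fold change of 1.76 ± 0.25 (SE; edgeR adjusted p = 3.32e-04). Its partner gene Arnt rose by 1.30 ± 0.23 and its target Tiparp by 0.90 ± 0.20 on the log2 scale (SE; edgeR adjusted p = 0.00139 and 0.00636), and the call of Tiparp was lost with the restricted TMM.

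Likeness was measured as the root mean square difference of log2(CPM + 1), centred on each dataset's mean, over the 14 libraries, among 10116 genes with a mean of at least 10 CPM in both datasets. The genes nearest to Gas1 were Nppc at 0.251, Irf1 at 0.297 and Jun, the partner of Fos in AP-1, at 0.349, beside a median of 0.870 over the genes compared. Nearest to G0s2 were Scd2 at 0.518, Gpx7 at 0.571 and Mamdc2 at 0.584, with a median of 1.12. For Chrdl2 they were Srsf9 at 0.162, Med14 at 0.172 and Wsb2 at 0.187, with a median of 0.522. Calcr was nearest to Psmd5, Abhd17a and Osbpl1a at 0.143 to 0.176, and Foxo1 to Il11ra1, Tcf4 and Osbpl1a at 0.156 to 0.167. Cd34 was nearest to Entpd2, Selenom and Npepl1 at 0.156 to 0.202, and Dag1 to Olfml2a, Abca8b and Pcyox1 at 0.192 to 0.204. The nearest genes are the smallest distances by choice, so they lie below the median by construction. The root mean square of a member around its own dataset means was 0.760 for Gas1, 1.03 for G0s2 and 0.464 for Chrdl2. It was 0.303 for Calcr, 0.310 for Foxo1, 0.430 for Cd34 and 0.433 for Dag1. These are descriptions over libraries that share groups, depth and background, with no test.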

How the data were processed

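Per the labels' protocols, cDNA was made with SMART-Seq v4, a kit that loses the strand, and sequenced on an Illumina HiSeq after Nextera XT tagging. Tools named by the submitters' processing notes, without their roles, are HTSeq 0.6.1, STAR 2.5.0c, limma and DESeq2 1.20.0, and the build is GRCm38. The authors deposited raw counts for 49671 Ensembl genes in 1 table per dataset. The 5 lines that name no gene held 69.8% to 89.7% of all reads and were left out of library sizes. The authors' deposited table of each comparison (3422 and 69 genes) holds log2 fold changes, errors and p-values. Their signs were opposite to the fits here for every shared gene and were turned, on the reading that the groups stand in the other order. The authors' deposited mean signal per gene in it, scaled by size factors as its column name tells, was not used, nor were 14 per-library columns that match no label.

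Datasets were fitted apart, over all genes, in edgeR 4.0.16 (R 4.3.3), with filterByExpr, TMM, the robust quasi-likelihood F-test (two-sided, without covariates) and calls at a Benjamini-Hochberg adjusted p under 0.05. CPM are counts per 1000000 of the TMM library size, and SE is the absolute log2 fold change over the root of F. Positions, symbols and exonic lengths come from GENCODE M21 (49412 of 49671 identifiers found), and promoters from RefSeq (GRCm38.p6). The fits were tested on simulated data. Alternatives were scaling by DESeq2 size factors or total counts, TMM restricted to genes of at least 50 CPM ("restricted TMM"), library sizes less the 20 top genes, other filters, DESeq2 1.42.0, limma-voom (limma 3.58.1) with or without quality weights, a replicate block, subtraction of an even background, and each library left out. Named genes are the members, up to 3 called genes per related list by smallest adjusted p, and the 3 genes nearest to each member. Members and lists were chosen with earlier results of these data known.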

Additional observations from a re-analysis of the deposited data

How the results depend on the processing

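In FosGFP+ against FosGFP-, with 1 member called higher and 1 lower, members called higher came to 0 with total counts, with the restricted TMM, with the 20 top genes left out of library sizes, and with the background subtracted. Members called lower came to 4, 6, 5 and 2 under these settings, to 2 with a filter at 5 CPM, and to 1 to 2 with a library left out. Of the related genes, 21 higher and 4 lower, called higher came to 12, 9, 12 and 13 under the same 4 settings. Those called lower came to 17, 32 and 22 under the 3 scalings, to 8 with the filter at 5 CPM, and to 3 to 7 with a library left out.

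In FoscKO against Control, with 0 called, 1 member was called higher with each of the 3 scalings, the filter at 5 CPM and the replicate block, 2 with no filter and with DESeq2, 3 with limma-voom quality weights, and 0 to 1 with a library left out. Related genes called higher came to 2, 1 and 2 under the 3 scalings, 3 with no filter, 1 with the filter at 5 CPM, 3 with DESeq2, 1 with limma-voom, 5 with quality weights, 1 with the replicate block, 1 with the background subtracted, and 0 to 1 with a library left out. The cause was not tested.

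Some members changed direction, none of which passed the main test. Foxo3 (FosGFP+ minus FosGFP-) was at -0.27, -0.45 and -0.33 under the 3 scalings and ranged over -0.020 (without FosGFP- replicate 1) to 0.28 with a library left out. In the same comparison, Fst ranged over -0.19 to 0.16 (without FosGFP+ replicate 2) and Dag1 over -0.37 to 0.076 (without FosGFP- replicate 2). In FoscKO minus Control, Fst was at -0.031, -0.022 and -0.0064 under the 3 scalings and ranged over -0.18 (without Control replicate 2) to 0.86 with a library left out, and Foxo1 over -0.14 (without FoscKO replicate 1) to 0.61.

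Same-numbered libraries deviated from their group means with correlations of -0.015 to 0.021 in the first dataset and -0.013 to 0.125 in the second. The numbers were not taken as pairs, though these correlations cannot exclude that same-numbered libraries share a mouse. With 0 of 8 and 3 of 6 libraries correlating best with their own number, the replicate block gave 2280 calls over all genes where the fit without it gave 2508, and 43 where it gave 0, and G0s2 in FoscKO minus Control to 1.68 (edgeR adjusted p = 0.0236). The even background limits Cyp1b1, which lies below it, and Fst and Foxo3, where it is 22.3% to 54.6% and 22.4% to 33.2% of the level. These shares are approximate, since the background is not even over genes.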
